A study of Mus musculus with 6 samples.

Results

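The odorant receptor genes described here are the 30 mouse genes named Olfr414 to Olfr461, taken by their number among the 53686 gene symbols of the count table, with pseudogene symbols that end in -ps left out. By the annotation of the same genome build (GRCm38), 11 of them lie on chromosome 1 and 19 on chromosome 6. Their levels were compared between dissected main olfactory epithelium of mice hemizygous for the 5x21-OR1A1 transgene, named for the human odorant receptor OR1A1, and that of wild-type mice. Both groups were of the C57BL/6J strain, with 3 libraries each of poly-A RNA. The promoter of the transgene, the number of transgenic lines and the ages of the mice are not stated in the labels, and whole epithelium was used, not sorted neurons. The labels give the libraries as replicates without naming animals, and a p-value here speaks of the spread among libraries, which may be partly technical. By Xist and Ddx3y counts each group held libraries of both sexes, so its libraries did not all come from the same animal. By its title, the series asks what receptor choice in neurons has in common with that of a receptor transgene chosen by many of them.

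Odorant receptors are G protein-coupled receptors in the cilia of olfactory sensory neurons. A mature neuron transcribes 1 allele of 1 receptor gene out of a very large family, so the level of a receptor transcript in whole tissue depends on how many neurons have chosen it and on how much RNA each of them holds. In bulk RNA, fewer cells of a type and less RNA per cell cannot be told apart. Class I receptors resemble those of fish and sit in 1 cluster in the mouse, and class II receptors, the larger class, sit in clusters on most chromosomes. Genes of a cluster often arose by duplication, and their coding sequence lies in 1 exon. All 30 genes studied here had 1 coding exon, with 924 to 963 coding bases.

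Gene families were read from the older receptor names in RefSeq, in which a number of 100 or more marks class II. MOR261, on chromosome 6, was the largest, with 8 genes: Olfr434, Olfr435, Olfr437, Olfr441, Olfr444, Olfr446, Olfr447 and Olfr448. MOR105, on chromosome 1, held 5 genes: Olfr420, Olfr424, Olfr427, Olfr429 and Olfr430. Chromosome 1 also held MOR267 (Olfr417, Olfr418 and Olfr419) and MOR123 (Olfr432 and Olfr433), and chromosome 6 held MOR257 (Olfr450, Olfr452, Olfr453, Olfr456 and Olfr457) and MOR120 (Olfr459, Olfr460 and Olfr461). MOR103 had a gene on each chromosome, Olfr414 on 1 and Olfr449 on 6. Olfr455 has no such number in that table and Olfr458 has several.

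The coding bases that follow show how alike the related, neighbouring genes are whose levels are set side by side in the results. Each is bases 322 to 399 of the coding sequence, counted from the start codon, on the + strand of GRCm38, and capitals mark bases that differ from the first gene of its set. The MOR105 genes come first, Olfr424 at chr1:174137067-174137144, Olfr420 at chr1:174159096-174159173 and Olfr427 at chr1:174099781-174099858.
Olfr424: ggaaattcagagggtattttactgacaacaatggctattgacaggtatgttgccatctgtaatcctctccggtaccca
Olfr420: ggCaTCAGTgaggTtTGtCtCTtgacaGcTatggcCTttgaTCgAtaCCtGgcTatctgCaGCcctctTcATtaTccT
Olfr427: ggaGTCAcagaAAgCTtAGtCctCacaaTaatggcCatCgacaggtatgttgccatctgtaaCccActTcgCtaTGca
Over the whole coding sequence Olfr424 shared 72.0% of aligned bases with Olfr427 and 64.3% with Olfr420. In this stretch Olfr427 differed from Olfr424 at 21 bases and Olfr420 at 31. The MOR123 pair, Olfr432 at chr1:174050696-174050773 and Olfr433 at chr1:174042273-174042350, differed at 1 base here and shared 84.7% of coding bases.
Olfr432: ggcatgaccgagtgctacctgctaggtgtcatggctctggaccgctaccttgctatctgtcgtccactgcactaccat
Olfr433: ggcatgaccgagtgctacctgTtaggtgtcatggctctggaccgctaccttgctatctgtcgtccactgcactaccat
From MOR261 are shown Olfr435 at chr6:43201967-43202044, Olfr434 at chr6:43217236-43217313, Olfr441 at chr6:43116065-43116142 and Olfr444 at chr6:42955821-42955898.
Olfr435: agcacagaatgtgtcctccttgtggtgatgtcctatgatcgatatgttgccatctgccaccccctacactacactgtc
Olfr434: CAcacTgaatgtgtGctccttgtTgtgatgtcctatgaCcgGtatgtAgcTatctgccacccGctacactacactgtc
Olfr441: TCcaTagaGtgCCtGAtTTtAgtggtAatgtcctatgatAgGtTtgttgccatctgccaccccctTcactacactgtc
Olfr444: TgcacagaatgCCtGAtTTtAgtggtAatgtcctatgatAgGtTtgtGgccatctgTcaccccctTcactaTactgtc
Olfr434 shared 85.5% and Olfr441 80.1% of coding bases with Olfr435, and Olfr441 shared 93.4% with Olfr444. The MOR103 genes Olfr449 at chr6:42838204-42838281 and Olfr414 at chr1:174430751-174430828, on different chromosomes, differed at 26 bases of the stretch and shared 61.0% of coding bases.
Olfr449: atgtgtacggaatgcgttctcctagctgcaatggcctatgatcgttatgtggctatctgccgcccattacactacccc
Olfr414: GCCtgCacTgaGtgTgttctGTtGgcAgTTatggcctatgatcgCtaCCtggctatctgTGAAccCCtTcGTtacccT
Of the 435 pairs among the 30 genes, 9 shared 80% of coding bases or more, with Olfr456 and Olfr457 the most alike at 95.4%. Reads were 100 bases long, and 15 of the 30 genes had no 100-base run of exon sequence in common with any other annotated gene. The largest share of such runs held in common was 10.5% (Olfr456), followed by 9.97% for Olfr432 and 8.02% for Olfr434.

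Libraries held 27506217 to 35804712 counts, and levels are given as CPM (the count divided by the TMM-scaled library total, on a common scale). By Xist and Ddx3y counts, the 5x21-OR1A1 libraries came from 1 male and 2 females and the wild-type libraries from 2 males and 1 female. Omp, the defining marker of mature olfactory neurons, was among the abundant transcripts of every library, at 6655 to 7005 CPM in 5x21-OR1A1 and 9695 to 12518 CPM in wild-type tissue. Of the vomeronasal markers, the channel gene Trpc2 was at 0 in all 6 libraries, but others were present and varied widely between libraries. Calr4 had 14.7, 13.2 and 30.02 CPM in 5x21-OR1A1 libraries, against 32.7, 7.19 and 2.66 CPM in wild-type libraries, and Vmn2r1 had 0.954, 1.34 and 3.61 CPM in 5x21-OR1A1 libraries, against 3.14, 0.934 and 0.173 CPM in wild-type libraries. Both were lowest in wild-type library 3, and their part in the receptor levels was not tested. In the pattern of these receptors, wild-type library 3 stood apart from its group. Spearman's rho over the 25 receptors with enough counts to be tested was 0.945 to 0.972 among the 5x21-OR1A1 libraries, which share tissue and gene lengths as all libraries here do. It was 0.988 between wild-type libraries 1 and 2, and 0.910 and 0.899 between each of these and library 3. Wild-type library 3 had a rho of 0.809 to 0.865 with the 5x21-OR1A1 libraries, against 0.698 to 0.823 for the other two wild-type libraries. Over 732 other class II receptors rho was likewise 0.950 between wild-type libraries 1 and 2, and 0.840 and 0.804 for each of them with library 3.

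**Figure D1:**
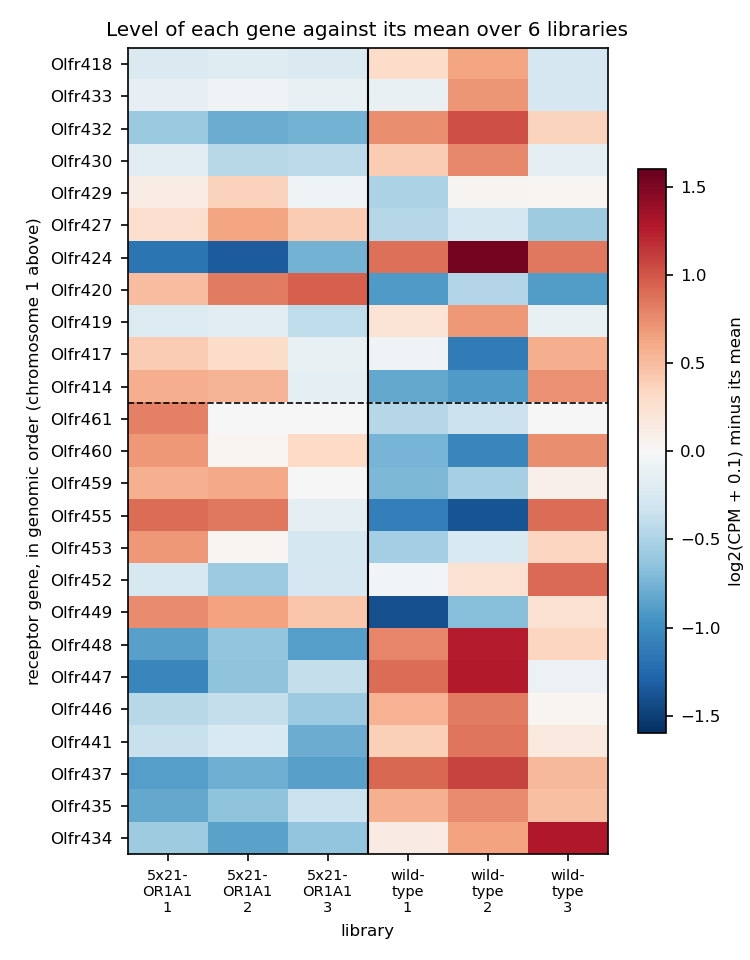
Level of each tested receptor in each library as log2(CPM + 0.1) minus its mean over 6 libraries (colour scale), with genes in genomic order, chromosome 1 above the dashed line and 5x21-OR1A1 libraries left of wild-type libraries. For Olfr455 wild-type library 3 is on the same side as 5x21-OR1A1 libraries 1 and 2. It held 6.61 CPM, against 1.59 and 1.29 in the other wild-type libraries. There 5x21-OR1A1 library 3, at 3.13 CPM, is below the mean. Every gene of the lowest block, Olfr434 to Olfr448, is lower in all 5x21-OR1A1 libraries.

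Of the 25 receptors tested, 6 were lower in 5x21-OR1A1 tissue and 1 was higher at an edgeR adjusted p under 0.05. Over all 19267 genes tested, 2.20% were lower and 0.519% higher by the same rule, 2.71% in either direction. The receptors that fell were Olfr424 and Olfr432 on chromosome 1 and Olfr435, Olfr437, Olfr446 and Olfr448 on chromosome 6, and the receptor that rose was Olfr420 on chromosome 1. The median log2 fold change (5x21-OR1A1 over wild-type) of the 25 was -0.50, beside 0.02 over all genes, and 14 of the 25 were below 0, where 47.1% of all genes were. In 12 receptors every 5x21-OR1A1 library lay below every wild-type library, a pattern that 12.5% of all genes had, and in 3 every one lay above, which 11.4% of all genes had. The other 10 tested receptors had overlapping groups. Of 732 other class II receptors tested, 312 had every 5x21-OR1A1 library below every wild-type library, and 69 had every one above. Without wild-type library 3 the calls among the 25 were 7 lower and 2 higher. Without 5x21-OR1A1 libraries 1, 2 and 3 they were 2, 3 and 3 lower, with 0 higher without 5x21-OR1A1 library 3.

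**Figure D2:**
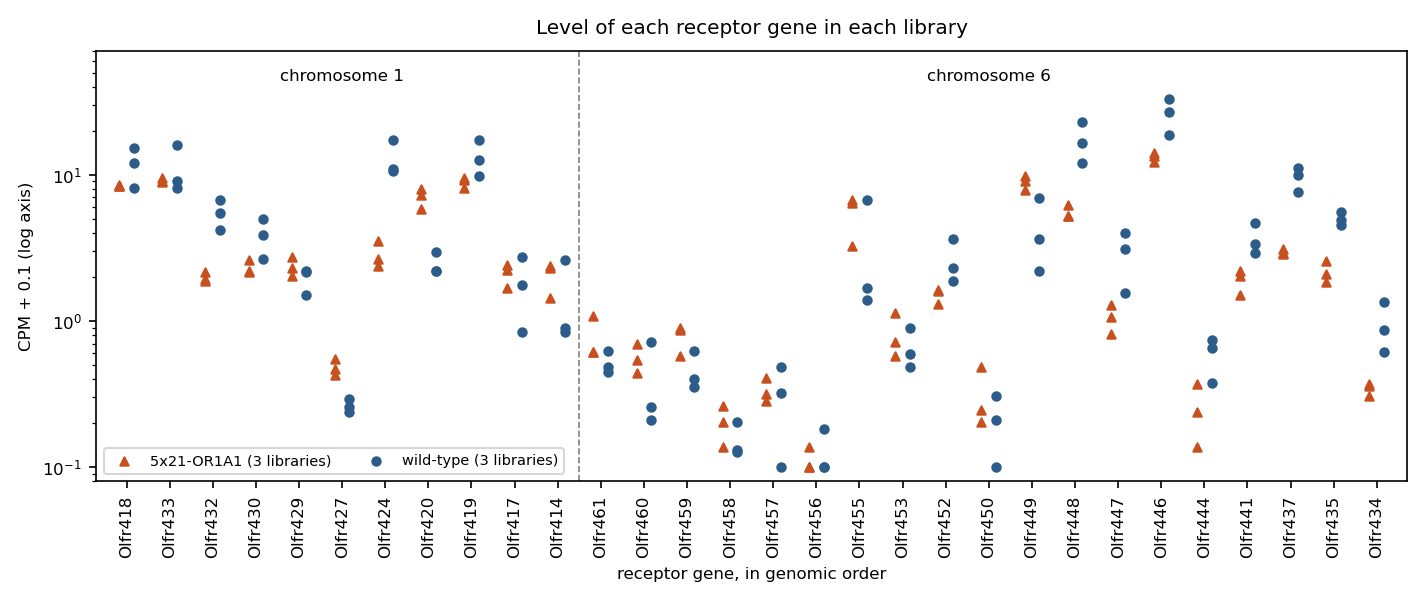
CPM + 0.1 of each of the 30 receptors in each library, on a log axis, with 5x21-OR1A1 and wild-type libraries marked apart and genes in genomic order. For Olfr424 the 5x21-OR1A1 libraries sit at 2.26 to 3.43 CPM, all below the wild-type libraries at 10.6 to 17.2 CPM, and for Olfr420 they sit at 5.72 to 7.88 CPM, all above 2.096 to 2.88 CPM.

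The MOR261 receptors on chromosome 6 were lower in 5x21-OR1A1 tissue as a group. All 7 tested members had a log2 fold change below 0 and no overlap between groups, and 4 of the 7 passed the test. Over all genes tested, 12.5% were lower without overlap and 2.20% were called lower. Of 732 other class II receptors, 312 were lower without overlap and 159 were called lower. With counts scaled to markers of mature neurons all 7 stayed below 0 (-1.05 to -0.28), but per count of those markers the groups overlapped in Olfr441, Olfr446 and Olfr447, each through wild-type library 3. The median log2 fold change of the 7 MOR261 receptors was -1.56. The 8 genes together held 26.3, 28.5 and 25.4 CPM in the 5x21-OR1A1 libraries, against 65.3, 81.6 and 48.4 CPM in the wild-type libraries, a log2 ratio of -1.28 (SE 0.22). They made up 29.1% ± 1.10 of the counts of all 30 receptors in 5x21-OR1A1 tissue and 45.5% ± 4.97 in wild-type tissue (SD, n = 3 each). Per count of mature neuron markers the family differed by -0.57 on the log2 scale (SE 0.22), with wild-type library 3 nearest to the 5x21-OR1A1 libraries.

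Olfr446, the most abundant of the 30 by mean CPM, had 13.4, 14.1 and 12.2 CPM in 5x21-OR1A1 libraries, against 26.9, 32.6 and 18.6 CPM in wild-type libraries. The groups did not overlap, and wild-type library 3 was the lowest of its group. The log2 fold change was -0.98 (SE 0.19, edgeR adjusted p = 0.0387), a difference of 1.97-fold. Of the 15 alternative fits 6 kept this call, fewer than for the other 6 called receptors. The adjusted p was 0.145, 0.121 and 0.165 without 5x21-OR1A1 libraries 1, 2 and 3 0.0717 and 0.0727 without wild-type libraries 1 and 2, and 0.0827 with sex as a covariate. Olfr448, 50.9 kb beyond Olfr449 on the chromosome, had 5.15, 6.07 and 5.08 CPM in 5x21-OR1A1 libraries, against 16.4, 22.7 and 12.004 CPM in wild-type libraries. Each wild-type library was above each 5x21-OR1A1 library, and the spread was mostly on the wild-type side. Olfr448 fell by 1.65 on the log2 scale (SE 0.23, edgeR adjusted p = 0.0108), and the adjusted p was 0.0645 and 0.0632 without 5x21-OR1A1 libraries 1 and 3. Olfr447, between these genes, had 0.709, 0.961 and 1.18 CPM in 5x21-OR1A1 libraries, against 2.98, 3.90 and 1.45 CPM in wild-type libraries. The log2 fold change of -1.56 (95% interval -2.45 to -0.68) did not pass the test (edgeR adjusted p = 0.0866), and did so without wild-type library 3 (0.0231).

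Nearer the end of the cluster, Olfr437 had 2.78, 2.98 and 2.80 CPM in 5x21-OR1A1 libraries, against 9.91, 11.04 and 7.51 CPM in wild-type libraries. The 5x21-OR1A1 libraries lay close together and far from the wild-type ones. Its log2 fold change was -1.73 (SE 0.17, edgeR adjusted p = 0.00354), 3.32-fold lower in 5x21-OR1A1 tissue, and it passed the test in all 15 alternative fits, as Olfr424 did. Olfr435 had 1.74, 1.99 and 2.47 CPM in 5x21-OR1A1 libraries, against 4.76, 5.44 and 4.46 CPM in wild-type libraries, again without overlap. It fell by 1.25 on the log2 scale (SE 0.19, edgeR adjusted p = 0.0159), with an adjusted p of 0.0830 and 0.0817 without 5x21-OR1A1 libraries 1 and 2. Its neighbour Olfr434, at 85.5% coding identity to it, was scarcer, with 0.273, 0.206 and 0.258 CPM in 5x21-OR1A1 libraries, against 0.508, 0.769 and 1.25 CPM in wild-type libraries. These are 6 to 10 counts in 5x21-OR1A1 libraries and 16 to 36 counts in wild-type libraries, and 8.02% of its 100-base runs were found in other genes. The log2 fold change was -1.75 (95% interval -2.69 to -0.80), and it did not pass the test (edgeR adjusted p = 0.0753; 0.0410 without wild-type library 1). Olfr441 had a log2 fold change of -0.97 (95% interval -1.56 to -0.39) and also did not pass (edgeR adjusted p = 0.102). Olfr444 had too few counts for the test, with 10, 4 and 1 counts in 5x21-OR1A1 libraries and 20, 20 and 8 in wild-type libraries.

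**Figure D3:**
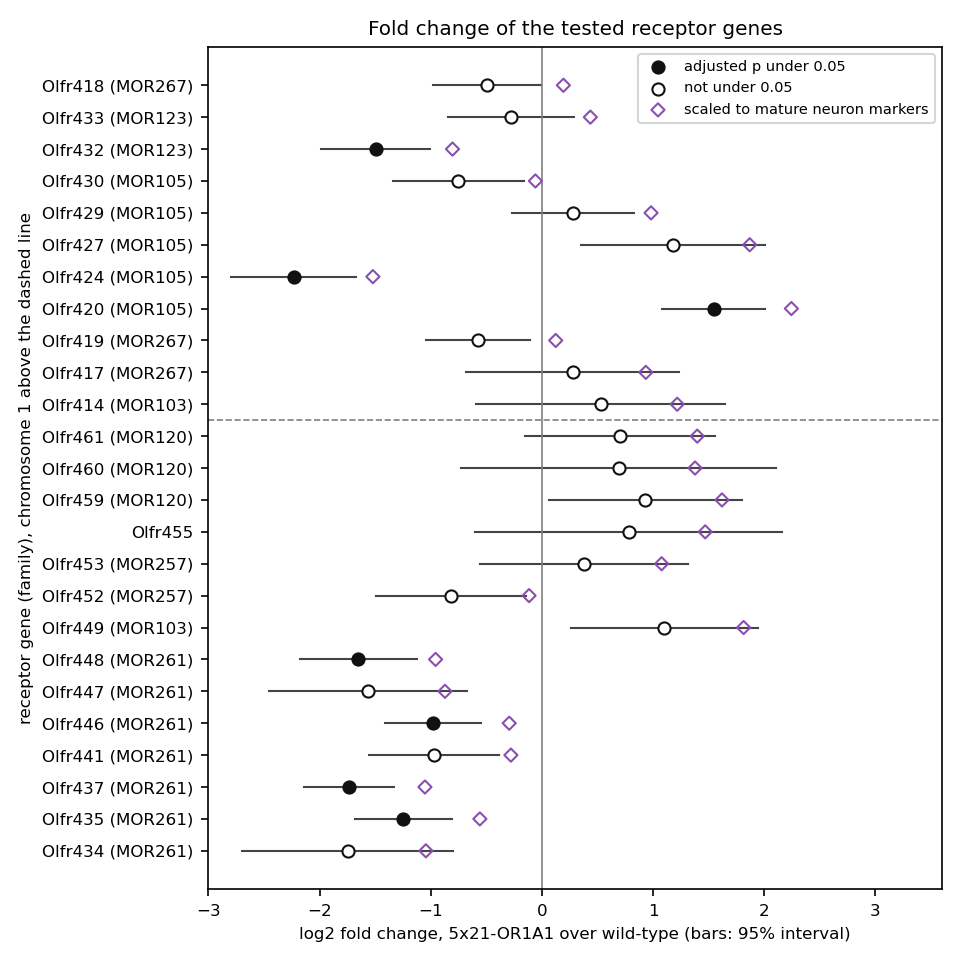
Log2 fold change (5x21-OR1A1 over wild-type) of each tested receptor with its 95% interval, in genomic order, and the value with counts scaled to mature neuron markers as a diamond, where the median of all genes was 0.69. Olfr424 at -2.23 and Olfr420 at 1.55 are the lowest and the highest values, and the 7 MOR261 receptors are all below 0 under both scalings.

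The other receptors of chromosome 6 did not pass the test in either direction, and 6 of these 7 were above 0. Marker scaling moved the median of all genes to 0.69, and the same 6 stayed above 0, as that shift alone would give. Olfr449, which lies just before the MOR261 genes, had 9.76, 9.02 and 7.81 CPM in 5x21-OR1A1 libraries, against 2.096, 3.54 and 6.81 CPM in wild-type libraries. The groups did not overlap, but wild-type library 3 came close to the 5x21-OR1A1 libraries. The log2 fold change was 1.10 (SE 0.37, 95% interval 0.26 to 1.94, edgeR adjusted p = 0.181). Without wild-type library 3 it was 1.65 with an adjusted p of 0.0244, and DESeq2 gave an adjusted p of 0.0250. Olfr414, the other MOR103 gene, was at 2.26, 2.20 and 1.33 CPM in 5x21-OR1A1 libraries, against 0.794, 0.741 and 2.53 CPM in wild-type libraries, where library 3 was again the high one. Its log2 fold change of 0.53 had a 95% interval of -0.59 to 1.65 (edgeR adjusted p = 0.640). Olfr455 showed the same arrangement, with 6.62, 6.35 and 3.13 CPM in 5x21-OR1A1 libraries, against 1.59, 1.29 and 6.61 CPM in wild-type libraries (log2 fold change 0.78, 95% interval -0.60 to 2.16). For Olfr455 wild-type library 3 was level with 5x21-OR1A1 library 1 and above 5x21-OR1A1 libraries 2 and 3, so the groups overlapped.

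The 3 MOR120 receptors at the start of the chromosome 6 range were scarce, none above 1 CPM in any library. Olfr461 had a log2 fold change of 0.70, Olfr460 of 0.69 and Olfr459 of 0.93, and none passed the test (edgeR adjusted p = 0.382, 0.628 and 0.261). Their groups all overlapped, with wild-type library 3 the highest of its group each time. Together they held 2.34, 1.65 and 1.44 CPM in 5x21-OR1A1 libraries, against 0.762, 0.796 and 1.66 CPM in wild-type libraries. Of the MOR257 receptors, 2 of 5 could be tested. Olfr452 had 1.53, 1.20 and 1.51 CPM in 5x21-OR1A1 libraries, against 1.78, 2.20 and 3.53 CPM in wild-type libraries, without overlap, and its log2 fold change of -0.82 did not pass (95% interval -1.49 to -0.15, edgeR adjusted p = 0.207). Olfr453, at 83.7% coding identity to it, had a log2 fold change of 0.38 (95% interval -0.56 to 1.31) and turned to -0.01 without 5x21-OR1A1 library 1.

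The receptors with too few counts for the test were all on chromosome 6: Olfr444, Olfr450, Olfr456, Olfr457 and Olfr458, none above 20 counts in a library. Olfr456 had 0, 0 and 1 counts in 5x21-OR1A1 libraries and 0, 3 and 0 in wild-type libraries. Olfr457 had 8, 9 and 5 counts in 5x21-OR1A1 libraries and 7, 0 and 11 in wild-type libraries. Olfr456, Olfr457 and Olfr458 share 93.1% to 95.4% of coding bases, so reads that match more than 1 of them may have been lost or shared. In the fit with no filter on low counts, Olfr444 had a log2 fold change of -1.63 (unadjusted p = 0.0141, edgeR adjusted p = 0.223), and the other 4 had adjusted p-values of 0.703 to 0.909. No receptor of the 30 was at 0 in every library.

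On chromosome 1 the MOR105 genes held both the largest fall and the rise, from genes 17.4 kb apart. Olfr424 had 2.56, 2.26 and 3.43 CPM in 5x21-OR1A1 libraries, against 10.9, 17.2 and 10.6 CPM in wild-type libraries. Every wild-type library was above every 5x21-OR1A1 library, by a wide gap. Its log2 fold change was -2.23 (SE 0.24, edgeR adjusted p = 0.00435), 4.70-fold lower in 5x21-OR1A1 tissue (2.75 ± 0.603 against 12.9 ± 3.72 CPM, SD, n = 3 each). Per kilobase of exon, Olfr424 stood eighth among the 30 in 5x21-OR1A1 tissue, at 1.68 ± 0.367 CPM per kb, and first in wild-type tissue, at 7.86 ± 2.27 CPM per kb. In wild-type tissue Olfr446 came next at 5.92 ± 1.59 CPM per kb, a difference within the spread of the libraries, and in 5x21-OR1A1 tissue Olfr449 came first at 4.38 ± 0.487 CPM per kb.

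Olfr420, the next intact receptor along the chromosome, had 5.72, 7.21 and 7.88 CPM in 5x21-OR1A1 libraries, against 2.096, 2.88 and 2.11 CPM in wild-type libraries. All 5x21-OR1A1 libraries were above all wild-type ones, and library 3 of the 5x21-OR1A1 group was the highest. It was 2.92-fold higher in 5x21-OR1A1 tissue (6.94 ± 1.10 against 2.36 ± 0.451 CPM, SD, n = 3 each), a log2 fold change of 1.55 (SE 0.20, edgeR adjusted p = 0.00808). Without 5x21-OR1A1 library 3 the log2 fold change was 1.44 and the adjusted p 0.0505. Of the counts of all 30 receptors, Olfr420 took 7.59% ± 1.57 in 5x21-OR1A1 tissue and 1.67% ± 0.0757 in wild-type tissue (SD, n = 3 each). Olfr424 took 3.02% ± 0.858 in 5x21-OR1A1 tissue and 8.98% ± 0.825 in wild-type tissue. Olfr424 shared no 100-base run with another gene and Olfr420 shared 0.513% of its runs.

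The remaining MOR105 genes did not pass the test. Olfr427, the closest relative of Olfr424 in sequence, had 12, 13 and 10 counts in 5x21-OR1A1 libraries, against 5, 7 and 4 counts in wild-type libraries. Its groups did not overlap, and the log2 fold change was 1.18 (95% interval 0.36 to 2.01, edgeR adjusted p = 0.149). Olfr430 was at 2.51, 2.06 and 2.099 CPM in 5x21-OR1A1 libraries, against 3.78, 4.89 and 2.56 CPM in wild-type libraries (log2 fold change -0.75, 95% interval -1.34 to -0.17, edgeR adjusted p = 0.189). Olfr429 overlapped between groups (0.28, 95% interval -0.27 to 0.83). The 5 genes summed to 13.3, 14.6 and 15.7 CPM in 5x21-OR1A1 libraries, against 18.4, 27.2 and 17.5 CPM in wild-type libraries, without overlap (log2 ratio -0.53, SE 0.22). Per count of mature neuron markers the sum differed by 0.18 (SE 0.17). In the main fit, without marker scaling, 3 of the 5 genes were above 0, with a median log2 fold change of 0.28.

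In the MOR123 pair, Olfr432 had 2.07, 1.78 and 1.84 CPM in 5x21-OR1A1 libraries, against 5.40, 6.59 and 4.08 CPM in wild-type libraries, without overlap. It fell by 1.49 on the log2 scale (SE 0.21, edgeR adjusted p = 0.0122), and the adjusted p was 0.0595, 0.0690 and 0.0748 without 5x21-OR1A1 libraries 1, 2 and 3. Olfr432 shares 544 exon bases with the pseudogene Olfr431-ps1 on the same strand, so reads from that overlap cannot be assigned to 1 of the genes. Olfr433, 4.79 kb away and at 84.7% coding identity, had 8.86, 9.33 and 8.91 CPM in 5x21-OR1A1 libraries, against 8.92, 15.8 and 8.03 CPM in wild-type libraries. Only wild-type library 2 was apart, and without it the log2 fold change of -0.28 (95% interval -0.84 to 0.29, edgeR adjusted p = 0.623) became 0.10. With counts scaled to mature neuron markers Olfr433 was at 0.44, where the median of all genes was 0.69.

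The MOR267 receptors include 2 of the 5 most abundant of the 30. Olfr419 had 9.16, 9.44 and 7.99 CPM in 5x21-OR1A1 libraries, against 12.4, 17.2 and 9.76 CPM in wild-type libraries, without overlap. Its log2 fold change was -0.57 (95% interval -1.04 to -0.10, edgeR adjusted p = 0.206). It was 0.12 in the fit scaled to mature neuron markers, where the median of all genes was 0.69. Olfr418, 767 kb before the other receptors of chromosome 1 in this set, had 8.23, 8.44 and 8.25 CPM in 5x21-OR1A1 libraries, against 11.9, 15.1 and 8.06 CPM in wild-type libraries. Wild-type library 3 was at the level of the 5x21-OR1A1 libraries, so the groups overlapped, and the log2 fold change was -0.50 (95% interval -0.98 to -0.01, edgeR adjusted p = 0.284), and 0.19 with marker scaling. Olfr417 had a log2 fold change of 0.28 (95% interval -0.68 to 1.24), which was -0.08 without wild-type library 2. Of the 18 tested receptors that were not called, 7 had a 95% interval below 0, 3 had one above 0 and 8 had one that held 0.

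Summed over all 30 genes, the receptors held 94.6, 95.8 and 85.8 CPM in 5x21-OR1A1 libraries, against 132, 174 and 121 CPM in wild-type libraries. The groups did not overlap, at 92.0 ± 5.46 CPM in 5x21-OR1A1 and 142 ± 27.8 CPM in wild-type tissue (SD, n = 3 each), and the log2 ratio was -0.63 (SE 0.17). On chromosome 1 the sums were 46.6 ± 1.21 CPM in 5x21-OR1A1 and 65.2 ± 16.3 CPM in wild-type tissue (log2 ratio -0.48, SE 0.21), and on chromosome 6 they were 45.5 ± 4.57 CPM in 5x21-OR1A1 and 76.9 ± 11.6 CPM in wild-type tissue (-0.76, SE 0.15; SD, n = 3 each). With counts scaled to mature neuron markers, where the median of all genes was 0.69, the ratios were 0.07 for all, 0.21 for chromosome 1 and -0.07 for chromosome 6. The sum of chromosome 1 per count of chromosome 6 was 0.957, 1.001 and 1.13 in 5x21-OR1A1 libraries, against 0.824, 0.927 and 0.767 in wild-type libraries. The difference was 0.30 on the log2 scale (SE 0.11), without overlap.

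These sums stood beside similar ones for the rest of the class. The 928 other class II receptors held 1922 ± 103 CPM in 5x21-OR1A1 and 3062 ± 496 CPM in wild-type tissue (SD, n = 3 each), a log2 ratio of -0.67, and 159 of the 732 tested fell while 16 rose (median log2 fold change -0.64). Per count of these other receptors, the 30 genes differed by 0.05 on the log2 scale (SE 0.15). That ratio was 0.0477, 0.0484 and 0.0476 in 5x21-OR1A1 libraries, against 0.0525, 0.0501 and 0.0377 in wild-type libraries. Only wild-type library 3 was below the 5x21-OR1A1 libraries. Class I receptors, with a median of -1.70, had 74 of 106 lower at the same threshold. Within the 30, the MOR103 pair took 11.7% ± 1.03 of the counts in 5x21-OR1A1 tissue and 4.13% ± 3.11 in wild-type tissue, where library 3 held 7.72%.

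**Figure D4:**
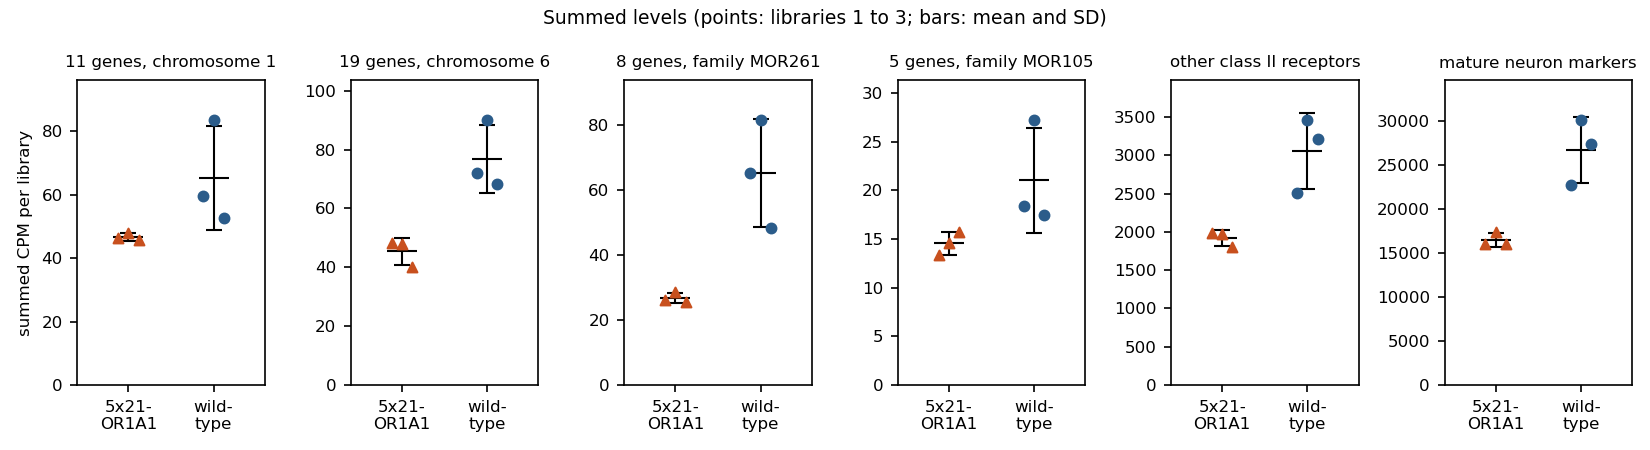
Summed CPM in each library, on axes from 0, of the receptors on chromosome 1 and chromosome 6, the MOR261 and MOR105 families, other class II receptors and mature neuron markers, with 5x21-OR1A1 left of wild-type and bars for the mean and SD of 3 libraries. In all 6 panels each 5x21-OR1A1 library lies below each wild-type library, and wild-type library 2 is the highest.

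Other genes within 500 kb of these receptors gave 50 more tested genes, 38 of them not odorant receptors. Of the 38, 0 passed the test by edgeR, DESeq2 or limma-voom, 4 had an unadjusted p under 0.05 by edgeR, and the median log2 fold change was 0.16 on chromosome 1 and 0.08 on chromosome 6. The neighbours that passed were odorant receptors or receptor pseudogenes with other numbers. On chromosome 1 Olfr231, which lies between Olfr427 and Olfr424, was at 3.35, 3.50 and 4.09 CPM in 5x21-OR1A1 libraries, against 12.3, 15.8 and 8.51 CPM in wild-type libraries (log2 fold change -1.75). Olfr258-ps1, 2.15 kb past Olfr424 on the side of Olfr420, was at 1.06, 0.961 and 1.14 CPM in 5x21-OR1A1 libraries, against 0.318, 0.439 and 0.277 CPM in wild-type libraries (1.59). Between Olfr258-ps1 and Olfr420 lies Olfr421-ps1, which had too few counts for the test, at most 8 in a library. Around Olfr418, Olfr16, Olfr1408, Olfr1406 and Olfr218 fell, with log2 fold changes of -1.61, -0.83, -1.30 and -1.21. On chromosome 6 Olfr237-ps1, 6.11 kb from Olfr437, fell by 0.92 on the log2 scale. Of these 7 neighbours, Olfr16 kept its call without each library in turn. Olfr258-ps1 lost it each time (edgeR adjusted p = 0.0510 to 0.147), and the other 5 lost it without 1 or more of the 5x21-OR1A1 libraries (up to 0.167). The calls of Olfr1408, Olfr237-ps1 and Olfr258-ps1 were also lost with sex as a covariate (0.0767, 0.0928 and 0.0689).

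Markers of the neurons that express receptors moved in the same libraries. The 17 markers of mature olfactory neurons summed to 16054 to 17400 CPM in 5x21-OR1A1 and 22714 to 30155 CPM in wild-type libraries, with 7 of the 17 lower and a median log2 fold change of -0.67. Omp, a cytoplasmic protein of mature neurons, fell by 0.76, Gng13, the G protein gamma subunit of olfactory transduction, by 0.81, and Ric8b, an exchange factor for the olfactory G protein, by 0.74 on the log2 scale. Of 22 genes of the transduction cascade 3 were lower, among them Cnga4, a subunit of the cyclic nucleotide-gated channel (-0.68). Of 14 immature neuron markers 4 were higher, led by the growth cone gene Gap43 (0.78), and 1 was lower, Stmn4 (-0.70). Of 12 progenitor markers 6 were higher, among them the neurogenic transcription factor gene Insm1 (0.97). Per count of mature neuron markers, the 30 receptors differed by 0.08 on the log2 scale (SE 0.14). That ratio was 0.00589, 0.00551 and 0.00534 in 5x21-OR1A1 libraries, against 0.00579, 0.00576 and 0.00442 in wild-type libraries, with wild-type library 3 the lowest. The part of these cell markers in the receptor levels was not tested further. Of the marker genes named here and in what follows, Gap43 kept its call without each library in turn, and each of the others lost it without 1 or more libraries, with edgeR adjusted p-values of up to 0.196.

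The other gene lists, of receptor choice, epithelial zones and other cell types, gave few calls. Of 23 genes with a known part in receptor choice, 1 was lower (Ebf4, a transcription factor of olfactory neurons, -0.74). Of the 23, 17 were above 0 without a call, and the median log2 fold change was 0.06. Of 5 markers of the dorsal zone of the epithelium 1 was lower, the quinone reductase gene Nqo1 (-1.18). In that list 2 of the 5 were above 0, with a median of -0.31. Of 3 ventral zone markers 1 was lower, Fam131c (-0.63, and 0.07 in the fit scaled to mature neuron markers). The other 2 ventral zone markers were above 0 and not called, and the median of the 3 was 0.28. Sustentacular cell markers, which come from the supporting cells, summed to 21379 to 21989 CPM in 5x21-OR1A1 and 22776 to 24170 CPM in wild-type libraries, with 0 of 9 called. Together with the tested markers of horizontal basal cells (7), microvillous cells and ionocytes (6), ciliated cells (6), glia (6), red blood cells (8) and vomeronasal tissue (4), 0 of these 46 genes were called by edgeR or limma-voom, 3 by DESeq2, and 7 had an unadjusted p under 0.05 by edgeR. Of 8 immune markers 1 was higher, the plasma cell gene Jchain (1.52). All these lists were chosen with earlier results of these data known, and their counts are a description.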

How the data were processed

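The values used are raw counts per gene symbol of 6 libraries, deposited by the authors without normalization. Per the labels' protocols, poly-A RNA of dissected epithelium went into nonstranded libraries that were sequenced single-end at 100 bp. The submitters' processing notes list TopHat2 2.1.1, HTSeq 0.9.1 and GRCm38.p5. How reads with several matches were counted, and against which annotation release, is not given in the sources used here. Overlapping genes cannot be separated in nonstranded reads.

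Coordinates, exon lengths and coding sequences came from GENCODE M21 for GRCm38, in which 49695 of 53686 symbols matched 1 gene, and family names from RefSeq synonyms (GRCm38.p6). The count table was tested with edgeR 4.0.16 (R 4.3.3) by the quasi-likelihood test of genotype over all 6 libraries, after TMM scaling and edgeR's own expression filter (minimum count 10, total 15). Calls are genes whose Benjamini-Hochberg adjusted p over all 19267 tested genes was under 0.05. Standard errors are the absolute log2 fold change divided by the square root of F. Summed levels have no test, and their log2 ratios are the log2 of the ratio of group means. Differences per count of other genes are differences between groups in the mean log2 ratio per library. Intervals of Olfr log2 fold changes are from the same edgeR fit. The fits were tested on simulated data with known changes.

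Alternatives were DESeq2 1.42.0, limma-voom (limma 3.58.1), DESeq2 size factors, scaling to 17 mature neuron markers, library totals, no filter, 1 CPM in 3 libraries, an adjusted p under 0.01, the pseudogene symbols added, the replicate number as a block, and each library left out. Sex as a covariate, read from Xist and Ddx3y, was added after seeing the data. Within each group replicates differed well beyond counting noise (chi-square per degree of freedom 48.5 to 196), so none was counted as a duplicate. The receptors and the gene lists were chosen with earlier results of these data known. Named were all called receptors, the 5 with the highest mean CPM, the 3 largest fold changes in each direction, up to 4 called genes of each list and called neighbours. The other receptors were chosen to account for all 30.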

Additional observations from a re-analysis of the deposited data

How the results depend on the processing

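Under every alternative the 30 receptors had more calls lower than higher, except with counts scaled to mature neuron markers. There the median of all genes moved to 0.69, with 14451 of the 19267 genes tested called higher and 257 lower. Of the 25 tested receptors 9 were called higher and 5 lower, and their median became 0.19. The log2 ratio of sums became 0.067 for all, 0.21 for chromosome 1 and -0.069 for chromosome 6. That scaling also turned Cnga4 to 0.015 and Fam131c to 0.072, neither called. Marker scaling ended the calls of Olfr446 (-0.29, adjusted p = 0.199) and Olfr435 (-0.56, adjusted p = 0.0529). DESeq2 called 8 receptors lower and 2 higher, with no adjusted p for 6 of the 30. An adjusted p under 0.01 left 2 receptors lower, Olfr424 and Olfr437. Leaving out each library in turn gave 2 to 7 receptors lower and 0 to 2 higher, medians of -0.60 to -0.26, and log2 ratios of sums of -0.73 to -0.46 for all, -0.62 to -0.27 for chromosome 1 and -0.84 to -0.63 for chromosome 6. With sex as a covariate, 5 receptors were lower and 1 higher.

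Over all genes, 523 were called by edgeR, 1194 by DESeq2, 14708 with marker scaling, 289 with sex as a covariate, and 150 to 626 without 1 library. Libraries with the same replicate number did not deviate together (correlations of -0.33, 0.07 and -0.17 over tested genes), so the numbers were not taken as pairs. With the replicate number as a block, 5 receptors were lower and 1 higher, Olfr435 had an adjusted p of 0.0537, and 377 genes were called in all. The causes of these changes were not tested. Depth limits the 5 receptors with at most 20 counts in a library, and 3 libraries a group limit the rest.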
